A study of Mus musculus with 6 samples.

Results

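Prostaglandin genes in mouse calvarial osteoblast cultures are described here across 6 mRNA sequencing libraries. The genes are 10 of the 31401 listed in the deposited table, found by exact match of the gene symbol, and each has 1 row. They encode the cyclooxygenases Ptgs1 and Ptgs2, the terminal synthases Ptges, Ptges2, Ptgis, Ptgds and Hpgds, the prostaglandin E2 receptors Ptger2 and Ptger4, and the degrading enzyme Hpgd. The 10 genes were chosen by name with the ZM-against-control values of these same libraries already known, so their levels and fold changes in that comparison are a description, with no p-value, and nothing is supported by them.

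The cells were primary osteoblasts grown from the calvaria of C57BL/6 mice aged 3 days and labelled as wild type. All cultures spent 6 days in osteogenic induction medium, 3 of them without ZM (control) and 3 with 10 μM ZM. ZM stands for ZM-306416, a tyrosine kinase inhibitor that acts on VEGF and EGF receptors. The series title is about bone loss, and the question put to these libraries is which prostaglandin genes differ when ZM is in the medium. The control label says only that ZM was absent, and all 6 samples carry the same batch label. Whether samples within a group come from separate cultures or animals is not labelled, so their spread may be technical.

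Prostaglandins are short-lived lipid signals made from arachidonic acid. A cyclooxygenase turns the acid into prostaglandin H2, and terminal synthases turn that into prostaglandin E2, prostacyclin, prostaglandin D2 or thromboxane, each read by its own G protein-coupled receptors. In bone, prostaglandin E2 is made by osteoblasts in response to cytokines and load, acts back on them through the EP2 and EP4 receptors and cyclic AMP, and is known to promote both bone formation and, by way of RANK ligand, osteoclast formation.

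Library totals ranged from 42721326 to 69867931 counts. Of 17533 genes that passed the filter on low counts, 45.3% differed between the groups at an adjusted p under 0.05 by edgeR's quasi-likelihood test, 22.8% higher and 22.4% lower with ZM, and the groups did not overlap in 54.2%. The share of calls that were higher was 50.4% with TMM scaling and 62.2% when libraries were scaled by total only. The 9 osteoblast markers summed to 34530 to 35626 CPM (counts scaled to library size with TMM factors) in control and 25271 to 26107 CPM in ZM samples, and of 8 tested 4 were higher and 1 lower. Spp1, the one that fell, went from 15169 to 4853 CPM, while Runx2, Sp7, Sparc and Alpl rose, Alpl from 2.60 to 30.9 CPM. The collagen gene Col1a1 had a mean of 8889.9 CPM without and 8774 CPM with ZM and did not pass the threshold. The late osteoblast markers Ibsp, at 0.142 and 0.236 CPM, and Bglap, which did not pass the filter on low counts, were near the floor. Macrophage markers were present in every library: the 13 on the list summed to 20597 to 21566 CPM in control and 10999.8 to 12176 CPM in ZM samples, with 12 lower, Mertk higher and none at 0. The 8 osteoclast markers summed to 500.2 to 534 CPM in control and 1031 to 1057 CPM in ZM samples, and all 8 were higher. The part of these cell type markers in the prostaglandin gene differences was not tested. In such bulk samples fewer cells of a type and less RNA per cell cannot be told apart.

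With ZM the cultures held less transcript of both cyclooxygenases, of the inducible prostaglandin E synthase Ptges, of the prostacyclin synthase Ptgis and of the EP2 receptor Ptger2, and more of the EP4 receptor Ptger4 and of Hpgd. The falls ran from 6.29-fold for Ptgs2 to 1.96-fold for Ptgis, and the rises were 2.80-fold for Hpgd and 1.38-fold for Ptger4. The constitutive synthase Ptges2 did not pass the threshold, and Hpgds was 1.08-fold lower. Of the 10 genes 9 passed the filter on low counts, and 8 of these were called, 6 lower and 2 higher, beside the 45.3% called among all tested genes. Since the choice of genes rests on this comparison, nothing is read from that share. The median log2 fold change of the 9 was -0.97, and that of all tested genes was 0.00 to 2 decimals.

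**Figure D1:**
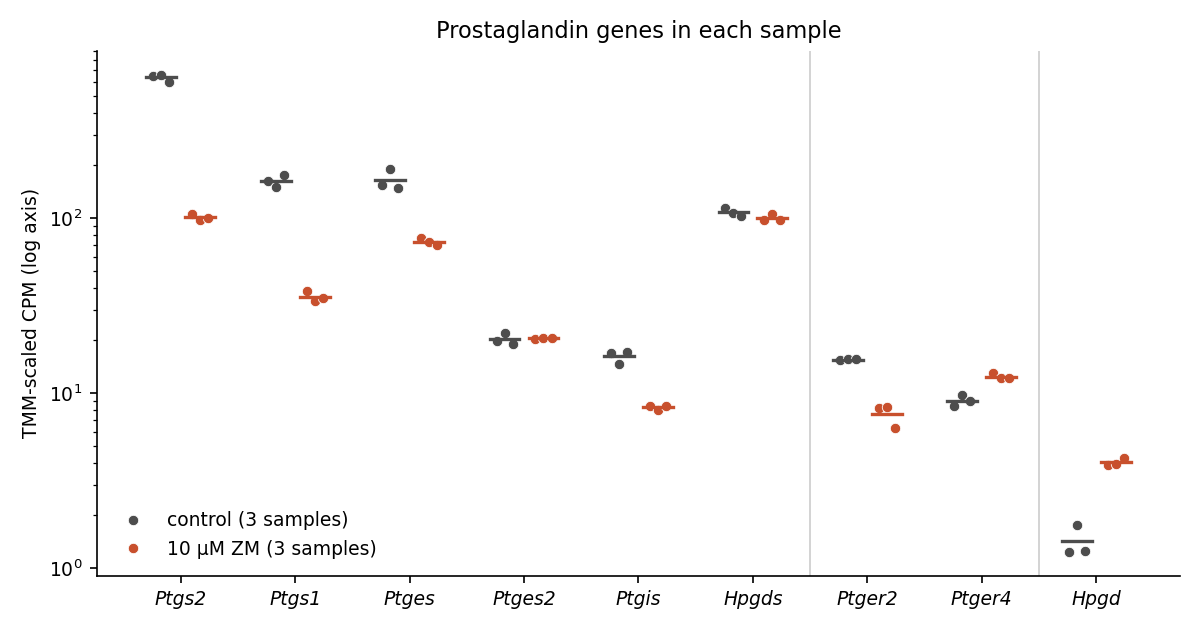
TMM-scaled CPM (log axis) of the 9 tested prostaglandin genes in each of 3 control (grey) and 3 ZM (orange) samples, with a bar at each group mean. The groups lie apart for Ptgs2, Ptgs1, Ptges, Ptgis, Ptger2, Ptger4 and Hpgd, and overlap for Ptges2 and Hpgds.

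The promoter windows of 4 of these genes are shown because 3 of them fell together (Ptgs2, Ptgs1 and Ptges) while Hpgd rose. They come from RefSeq on build GRCm38.p6 and run from 250 bases before to 50 after the annotated start, on the gene's own strand: chr1:150099781-150100080 (plus strand) for Ptgs2, chr2:36230176-36230475 (plus) for Ptgs1, chr2:30903248-30903547 (minus) for Ptges and chr8:56294302-56294601 (plus) for Hpgd. The RefSeq starts of Ptgs2, Ptgs1 and Ptges are also starts of coding transcripts in GENCODE, and the GENCODE extent of Ptges reaches further upstream, to 30929863. For Hpgd the GENCODE start lies 33 bases downstream of the RefSeq one. Capitals mark matches, on either strand, to 8 motifs searched by a fixed spelling, and positions count the RefSeq start base as 0.
Ptgs2: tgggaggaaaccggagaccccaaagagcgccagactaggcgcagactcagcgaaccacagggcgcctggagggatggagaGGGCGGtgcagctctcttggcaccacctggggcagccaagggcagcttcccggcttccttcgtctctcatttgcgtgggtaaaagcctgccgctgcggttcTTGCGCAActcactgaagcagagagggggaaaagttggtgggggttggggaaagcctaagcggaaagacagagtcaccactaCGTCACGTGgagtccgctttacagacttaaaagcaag
Ptgs1: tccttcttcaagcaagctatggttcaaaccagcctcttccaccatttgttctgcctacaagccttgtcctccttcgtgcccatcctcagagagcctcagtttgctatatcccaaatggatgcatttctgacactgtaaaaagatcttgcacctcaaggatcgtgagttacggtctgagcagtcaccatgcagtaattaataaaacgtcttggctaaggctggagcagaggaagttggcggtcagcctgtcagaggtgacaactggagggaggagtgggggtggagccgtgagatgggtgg
Ptges: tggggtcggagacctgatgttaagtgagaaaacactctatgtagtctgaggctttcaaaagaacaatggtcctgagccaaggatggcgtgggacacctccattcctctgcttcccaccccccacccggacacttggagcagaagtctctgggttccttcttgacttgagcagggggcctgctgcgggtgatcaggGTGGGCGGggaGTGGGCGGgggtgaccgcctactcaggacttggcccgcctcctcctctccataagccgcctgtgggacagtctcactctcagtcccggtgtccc
Hpgd: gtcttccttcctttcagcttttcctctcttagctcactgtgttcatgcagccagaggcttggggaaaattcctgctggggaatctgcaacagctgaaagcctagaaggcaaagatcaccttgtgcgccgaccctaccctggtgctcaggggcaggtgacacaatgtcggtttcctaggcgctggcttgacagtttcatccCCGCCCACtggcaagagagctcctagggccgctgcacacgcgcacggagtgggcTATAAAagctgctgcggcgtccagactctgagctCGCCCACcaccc

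The Ptgs2 window held the C/EBP palindrome TTGCGCAA from -69 to -62, a spelling found in 0.183% of the 32851 windows of this length in the table. Downstream of the annotated start it held a CRE half-site (TGACG, read on the minus strand) from 13 to 17 and an E-box (CACGTG) from 16 to 21, which share bases. These spellings occur in 20.8% and 7.15% of all windows. The start in use in these cultures was not measured, so bases counted as downstream of the annotated start may lie upstream of it. The Ptges window held the EGR core GTGGGCG at 2 places, each overlapping a GC box (GGGCGG), and the Hpgd window held that core at 2 places on the minus strand, one of them overlapping a GC box. The EGR core occurs in 7.97% of windows and the GC box, also present once in the Ptgs2 window without that core, in 35.7%. In Hpgd the letters TATAAA, found in 13.6% of windows, lay from 4 to 9, which is -29 to -24 from the GENCODE start. The Ptgs1 window held none of the 8 spellings, which included AP-1 (TGANTCA, 7.81% of windows) and an NF-kB spelling (GGANTTTCC, 1.25%). Among searched windows not printed here, that of Ptger2, which also fell, held none of the 8 spellings. That of Ptger4, which also rose, held the GC box at 4 places. A match is a match of letters, and binding was not measured here.

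The inducible cyclooxygenase Ptgs2 (chromosome 1, 150100031 to 150108227, plus strand, mm10; ENSMUSG00000032487) is the step that cytokines and growth factors switch on. Its level was 649, 659.9 and 602 CPM in control samples 1 to 3 and 106, 97.4 and 101 CPM in ZM samples 1 to 3. Every ZM sample lay below every control sample, and the spread within a group was small against the gap. The log2 fold change was -2.65 ± 0.04 (SE), on 27251 to 44768 counts per control library and 4431 to 6157 per ZM library. By deposited FPKM, which divides the count by library total and gene length, Ptgs2 ranked between 234 and 263 of all genes in the control and between 2022 and 2214 in the ZM libraries. Only 79 of the 17533 tested genes had a lower log2 fold change.

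Ptgs1 (chromosome 2, 36230426 to 36252272, plus strand; ENSMUSG00000047250), the cyclooxygenase usually described as constitutive, fell as well. It stood at 162, 149.8 and 176 CPM in control samples and 38.3, 33.4 and 34.9 CPM in ZM samples, a log2 fold change of -2.19 ± 0.07. The groups did not overlap, and 154 tested genes had a lower fold change. Exons of Ptgs1 overlap an antisense-strand gene over 3.81% of their length, and reads of the 2 strands cannot be told apart without a stated strand setting. Ptgs1 is also expressed by macrophages, of whose 13 markers 12 were lower in the same libraries, with log2 fold changes from -1.48 (Fcgr1) to -0.22 (Ptprc). Mertk was higher (0.17). The log2 fold change of Hpgds, also known from macrophages, was -0.12. The part of macrophages in these differences was not tested.

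The cyclooxygenase transcripts together came to 174 to 180.4 FPKM in the control and 30.4 to 33.7 FPKM in the ZM libraries. Ptgs2 supplied 74.4% to 78.9% of that sum in control and 70.03% to 71.2% in ZM samples, so it stayed the larger part in each library. The ratio of Ptgs2 to Ptgs1 in FPKM was 3.39, 3.74 and 2.90 in control samples and 2.34, 2.48 and 2.44 in ZM samples. Each ZM ratio lay below each control ratio, by less than the fall of either gene.

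Among the terminal synthases, Ptges (chromosome 2, 30889471 to 30929863, minus strand; ENSMUSG00000050737), the inducible microsomal enzyme that works with Ptgs2 to make prostaglandin E2, stood at 155, 190.2 and 148 CPM in control and 77.0, 72.7 and 69.8 CPM in ZM samples. The ZM samples were all lower, by a log2 fold change of -1.17 ± 0.11, and the control samples spread more widely, relative to their mean, than for Ptgs2. Ptges2 (chromosome 2, 32395896 to 32405772, plus strand; ENSMUSG00000026820), a second prostaglandin E synthase that is not induced by cytokines, was at 19.9, 22.1 and 19.0 CPM in control and 20.5, 20.7 and 20.5 CPM in ZM samples. The ZM values lay inside the control range, with a log2 fold change of 0.01 and a 95% interval from -0.12 to 0.15.

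The prostacyclin synthase Ptgis (chromosome 2, 167191805 to 167240604, minus strand; ENSMUSG00000017969) was at 17.02, 14.6 and 17.2 CPM in control and 8.44, 7.96 and 8.41 CPM in ZM samples. Each ZM sample was lower than each control sample, with a log2 fold change of -0.97 ± 0.08. Endothelial cells are the classical site of Ptgis, and the 5 endothelial markers in the table summed to 7.21 to 8.65 CPM in control and 3.87 to 4.88 CPM in ZM samples, with 2 of 4 tested lower. Most of that sum was Vwf, at means of 6.43 and 3.77 CPM. Pecam1, Cdh5, Tek and Cldn5 were low, and Tek, which did not pass the threshold, went from 0.203 to 0.354 CPM. The part of endothelial cells in the fall of Ptgis was not tested. Exons of Ptgis overlap another gene over 6.08% of their length.

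Of the prostaglandin D synthases only Hpgds was detected above the floor. Hpgds (chromosome 6, 65117293 to 65144908, minus strand; ENSMUSG00000029919), the haematopoietic enzyme known from macrophages and mast cells, was at 114, 107 and 103 CPM in control and 97.4, 105 and 97.01 CPM in ZM samples. The groups overlapped, and the log2 fold change of -0.12 ± 0.04 was past the threshold with TMM scaling but not with library size alone (-0.06), on FPKM (-0.05 on the log2(FPKM + 1) scale), without control sample 1 (-0.08) or 2 (-0.12), or without ZM sample 1 (-0.10) or 3 (-0.10). Of the 13 macrophage markers 12 were lower with ZM, and their part in the level of Hpgds was not tested. Mast cell markers were near the floor, with 5 of 8 in the table, none passing the filter and sums of 0.143 to 0.213 CPM in control and 0.223 to 0.528 CPM in ZM samples. Ptgds (chromosome 2, 25466709 to 25470046, minus strand; ENSMUSG00000015090), the lipocalin-type enzyme of brain and meninges, had 1 count in ZM sample 3 and 0 in the others. A count of 0 allows up to 3 counts, or 0.0442 to 0.0714 CPM in these libraries, for counting error only.

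The 2 measured receptors for prostaglandin E2 that raise cyclic AMP moved in opposite directions. Ptger2 (EP2; chromosome 14, 44988195 to 45003820, plus strand; ENSMUSG00000037759) was at 15.4, 15.6 and 15.6 CPM in control and 8.25, 8.29 and 6.30 CPM in ZM samples, a log2 fold change of -1.03 ± 0.09. Control samples were nearly equal, and ZM sample 3 was the lowest. Ptger4 (EP4; chromosome 15, 5206661 to 5244187, minus strand; ENSMUSG00000039942) was at 8.40, 9.70 and 8.95 CPM in control and 12.9, 12.1 and 12.2 CPM in ZM samples, a log2 fold change of 0.46 ± 0.08. The groups did not overlap for either receptor. The ratio of Ptger4 to Ptger2 in FPKM was 0.426, 0.486 and 0.449 in control and 1.22, 1.14 and 1.52 in ZM samples, so EP2 transcripts were the more abundant in each control library and EP4 transcripts in each ZM library. Ptger4 exons overlap genes on the other strand over 16.5% of their length, and those of Ptger2 overlap other genes over 4.74%, so a part of each level is uncertain.

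Hpgd (chromosome 8, 56294585 to 56321043, plus strand; ENSMUSG00000031613) encodes the dehydrogenase that starts the inactivation of prostaglandins. It had 52 to 120 counts per control library and 179 to 227 per ZM library, the fewest of the 9 tested genes. Its level was 1.24, 1.77 and 1.26 CPM in control and 3.89, 3.94 and 4.26 CPM in ZM samples, with no overlap and a log2 fold change of 1.49 ± 0.16. The ratio of Ptgs2 to Hpgd in FPKM was 193, 137 and 176 in control and 9.97, 9.10 and 8.68 in ZM samples. The 2 ends of the path, the first enzyme and the degrading one, thus differed in opposite directions.

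**Figure D2:**
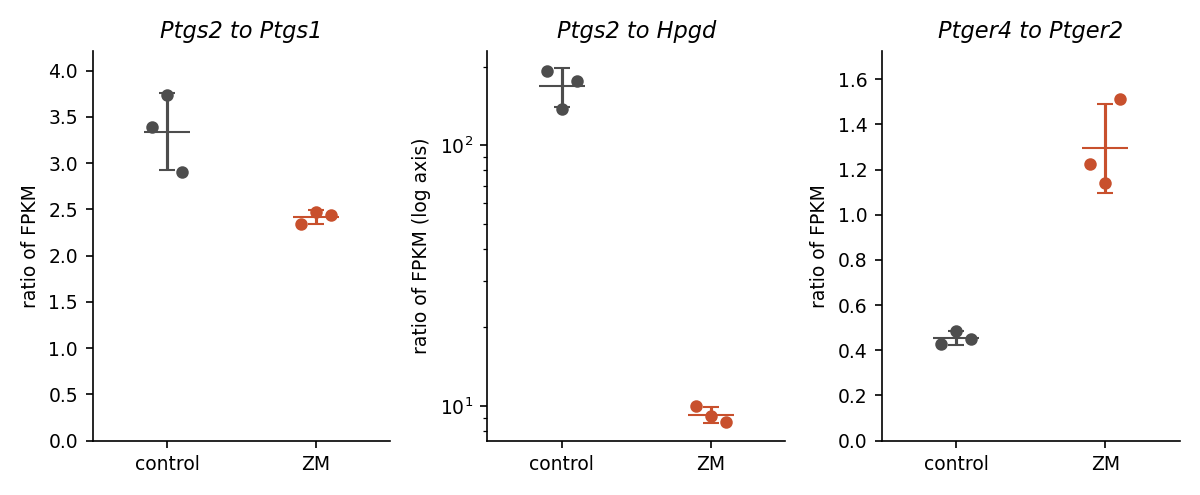
Ratio of deposited FPKM between pairs of prostaglandin genes within each library (points), with group mean and SD (bars, n = 3), on a log axis for Ptgs2 to Hpgd. Ptgs2 to Hpgd fell from 137 to 193 in control to 8.68 to 9.97 in ZM samples, and Ptger4 to Ptger2 crossed 1.

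Compared per gene length, the order of levels in control samples was led by Ptgs2 at 136 ± 5.97 FPKM (SD, n = 3). Ptgs1 at 41.0 ± 3.55 and Ptges at 40.9 ± 5.30 FPKM followed and could not be ordered, since their values overlapped. Below them came Hpgds at 16.5 ± 0.858, Ptgis at 6.21 ± 0.609, Ptges2 at 3.93 ± 0.273, Ptger2 at 2.93 ± 0.018, Ptger4 at 1.33 ± 0.087 and Hpgd at 0.826 ± 0.168 FPKM, each apart from its neighbour in all libraries. In ZM samples Ptgs2 still led, at 22.5 ± 0.9752 FPKM, but only just above Ptges at 19.0 ± 0.957 and Hpgds at 15.8 ± 0.647 FPKM. Ptgs1 dropped behind Hpgds to 9.33 ± 0.687 FPKM, Ptges2 at 4.15 ± 0.010 stood above Ptgis at 3.29 ± 0.116, and Hpgd at 2.44 ± 0.122 stood above Ptger4 at 1.91 ± 0.072 and Ptger2 at 1.496 ± 0.222 FPKM. Neighbours in the ZM order did not overlap.

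**Figure D3:**
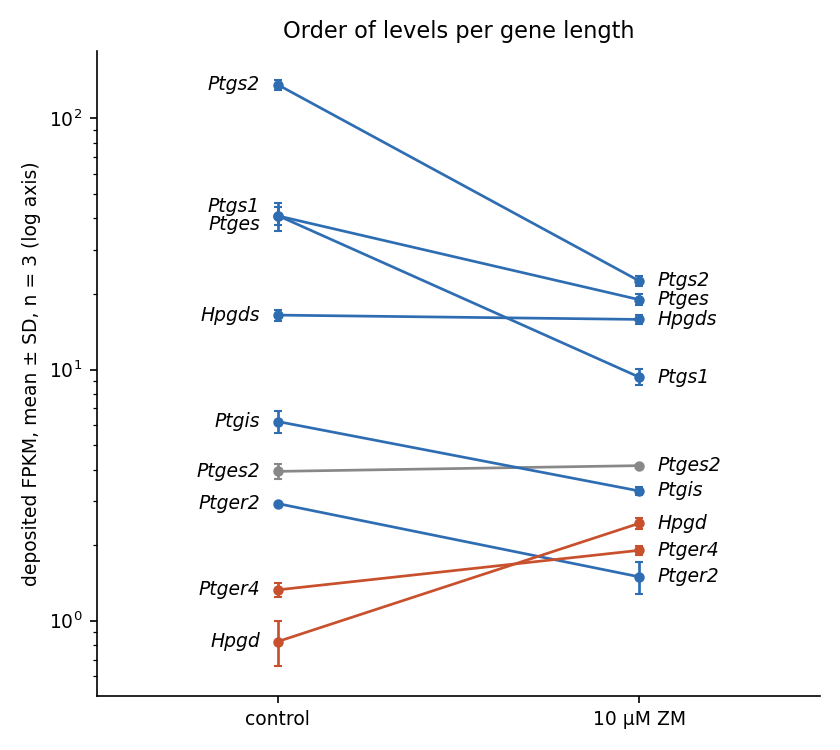
Mean deposited FPKM of the 9 detected prostaglandin genes in control and ZM samples on a log axis (bars: SD, n = 3), with lines coloured blue for genes called lower, orange for genes called higher and grey for Ptges2. The range between Ptgs2 and the next gene narrows from 136 against 41.0 FPKM to 22.5 against 19.0 FPKM.

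By the root mean square difference of centred log2 CPM over the 6 samples, among 7246 genes with a mean of at least 5 FPKM, the patterns most like that of Ptgs2 were those of the chemokine Ccl8 (difference 0.11), the hyaluronan synthase Has2 (0.13), the oxidised lipoprotein receptor Olr1 (0.14), the protease inhibitor Spint1 (0.15) and the chemokine Ccl12 (0.17). Their log2 fold changes lay between -2.88 and -2.68. With 2 groups of 3, such likeness rests almost wholly on the difference between the groups.

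Other genes of the path were taken from lists of known function, 116 genes in all, of which 105 were tested. Of these, 22 rose and 44 fell, 66 called in all against the 45.3% of all tested genes, with a median log2 fold change of -0.08. The called share was 41.7% for the list of arachidonate release and 45.8% for that of cyclic AMP signalling, near the share of all tested genes. It was higher for the others. Since the lists were chosen with earlier results known, nothing is read from these shares. The adjusted p-values of list genes are likewise a description of this comparison and no separate support. Of 12 tested genes that release arachidonate 4 fell and 1 rose (median -0.12). The falls were led by the cytosolic phospholipase Pla2g4a, which acts just ahead of the cyclooxygenases. Its level went from 136 ± 3.74 to 63.4 ± 0.260 CPM (SD, n = 3 each, log2 fold change -1.10 ± 0.04, edgeR adjusted p = 4.3e-13). The lipase Daglb rose (0.45 ± 0.05, adjusted p = 3.7e-06). Among 9 genes that make arachidonate or put it back into phospholipids 6 fell and 0 rose (median -0.16; edgeR), with the acyltransferase Lpcat2 (-0.83 ± 0.09, adjusted p = 1.9e-04) and the arachidonate-preferring ligase Acsl4 (-0.40 ± 0.03, adjusted p = 7.9e-08) as examples.

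Of 5 other prostanoid synthases 3 fell and 0 rose (median -0.25). The thromboxane synthase Tbxas1 fell by 0.57 ± 0.04 on the log2 scale (adjusted p = 2.1e-08), the prostaglandin F synthase Akr1b3 by 0.34 ± 0.04 (adjusted p = 1.5e-06) and the cytosolic prostaglandin E synthase Ptges3 by 0.25 ± 0.04 (adjusted p = 9.2e-05). Cbr1 was at 33.5 and 32.5 CPM (adjusted p = 0.54). Prxl2b was at 18.3 and 20.4 CPM (adjusted p = 0.081) and was called higher under 3 alternatives, with adjusted p between 0.017 and 0.32 over all of them (edgeR, DESeq2 and limma). Tbxas1 is another gene known from macrophages, whose markers were lower in the same samples, and their part in its fall was not tested.

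Of 5 other prostanoid receptors tested, 3 rose and 1 fell (median 0.55). The EP3 receptor Ptger3, which lowers cyclic AMP, was at 0.238, 0.354 and 0.523 CPM in control and 4.15, 3.08 and 3.01 CPM in ZM samples, a log2 fold change of 3.15 ± 0.24 (adjusted p = 1.5e-08). It was low in both groups, with 10 to 32 counts per control library and 140 to 242 per ZM library. The thromboxane receptor Tbxa2r went from 1.19 ± 0.190 to 4.23 ± 0.322 CPM (1.80 ± 0.16, adjusted p = 7.7e-08) and the prostaglandin F receptor Ptgfr from 4.22 ± 0.209 to 6.17 ± 0.088 CPM (0.55 ± 0.10, adjusted p = 3.0e-04). The prostacyclin receptor Ptgir fell, from 15.5, 23.8 and 17.2 CPM in control to 10.0, 9.67 and 10.6 CPM in ZM samples (-0.91 ± 0.17, adjusted p = 0.0057), as its synthase Ptgis did. The EP1 receptor Ptger1 was at 0.965 and 0.974 CPM (adjusted p = 0.99), and 71.0% of its exon length overlaps other genes. Ptgdr2 did not pass the filter, and Ptgdr was not analysed here. Among the 4 receptors for prostaglandin E2, EP1 did not pass the threshold, EP2 fell and EP3 and EP4 rose.

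All 4 tested genes of prostaglandin transport and reduction changed by small amounts, 3 lower and 1 higher (median -0.27). The uptake carrier Slco2a1 (-0.42 ± 0.08, adjusted p = 2.5e-04), the export pump Abcc4 (-0.27 ± 0.05, adjusted p = 1.6e-04) and the reductase Ptgr1 (-0.26 ± 0.04, adjusted p = 6.0e-05) fell, and the reductase Ptgr2 rose (0.20 ± 0.05, adjusted p = 0.0060), with 32.0% of its exon length shared with other genes.

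The leukotriene arm, which competes for the same acid, fell in 6 of 12 tested cases and rose in 1 (median -0.34). The 5-lipoxygenase Alox5 went from 33.8 ± 1.83 to 11.4 ± 0.127 CPM (-1.57 ± 0.06, adjusted p = 3.1e-12) and its activating protein Alox5ap from 67.7 ± 5.94 to 34.1 ± 2.54 CPM (-0.99 ± 0.07, adjusted p = 8.6e-07). The 1 gene that rose was the epoxide hydrolase Ephx2 (0.36 ± 0.07, adjusted p = 3.9e-04), which is on the list but does not make leukotrienes. Without control sample 2 the genes called lower numbered 3. Alox5 and Alox5ap are known mainly from leukocytes, and the part of the lower macrophage markers in their fall was not tested.

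Downstream of EP2 and EP4, 24 genes of cyclic AMP signalling split into 6 higher and 5 lower (median 0.03), a called share of 45.8% against 45.3% of all tested genes. The largest differences among those at 1 FPKM or more were in the adenylyl cyclases Adcy7 (-0.84 ± 0.04, adjusted p = 6.2e-11) and Adcy9 (0.59 ± 0.09, adjusted p = 6.3e-05). Of 12 genes known to respond to cyclic AMP or prostaglandin E2, 6 fell and 4 rose (median -0.25). The largest fall, of Areg (-3.06), and the largest rise, of Ppargc1a (2.24), were of genes below 1 FPKM in both groups. The genes named next reached that level in their higher group. The nuclear receptors Nr4a1 (-1.68 ± 0.08, adjusted p = 7.9e-08) and Nr4a2 (-1.58 ± 0.07, adjusted p = 2.8e-11) and the cytokine Il6 (-1.41 ± 0.13, adjusted p = 9.2e-04) fell, and the RANK ligand gene Tnfsf11 (1.23 ± 0.04, adjusted p = 1.2e-12), the kinase Sik1 (0.87 ± 0.08, adjusted p = 1.7e-07) and the clock gene Per1 (0.59 ± 0.05, adjusted p = 1.1e-07) rose.

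Genes known to induce or regulate Ptgs2 fell in 10 of 22 cases and rose in 6 (median -0.09), and 6 rather than 10 were lower without ZM sample 3. Interleukin 1, a classical inducer, was lower as Il1a, at 26.1, 37.4 and 26.6 CPM in control and 1.51, 1.495 and 0.903 CPM in ZM samples (-4.52 ± 0.27, adjusted p = 9.3e-05). It was also lower as Il1b (-4.06, edgeR adjusted p = 6.5e-04). The interleukin 1 antagonist Il1rn fell by 2.16 ± 0.10 (edgeR adjusted p = 2.6e-11). Most macrophage markers were lower in the same samples, and their part in the falls of Il1a, Il1b and Il1rn was not tested. The receptor Il1r1 rose (1.201 ± 0.05, adjusted p = 4.7e-12), as did Egfr (0.80 ± 0.04, adjusted p = 1.0e-10).

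**Figure D4:**
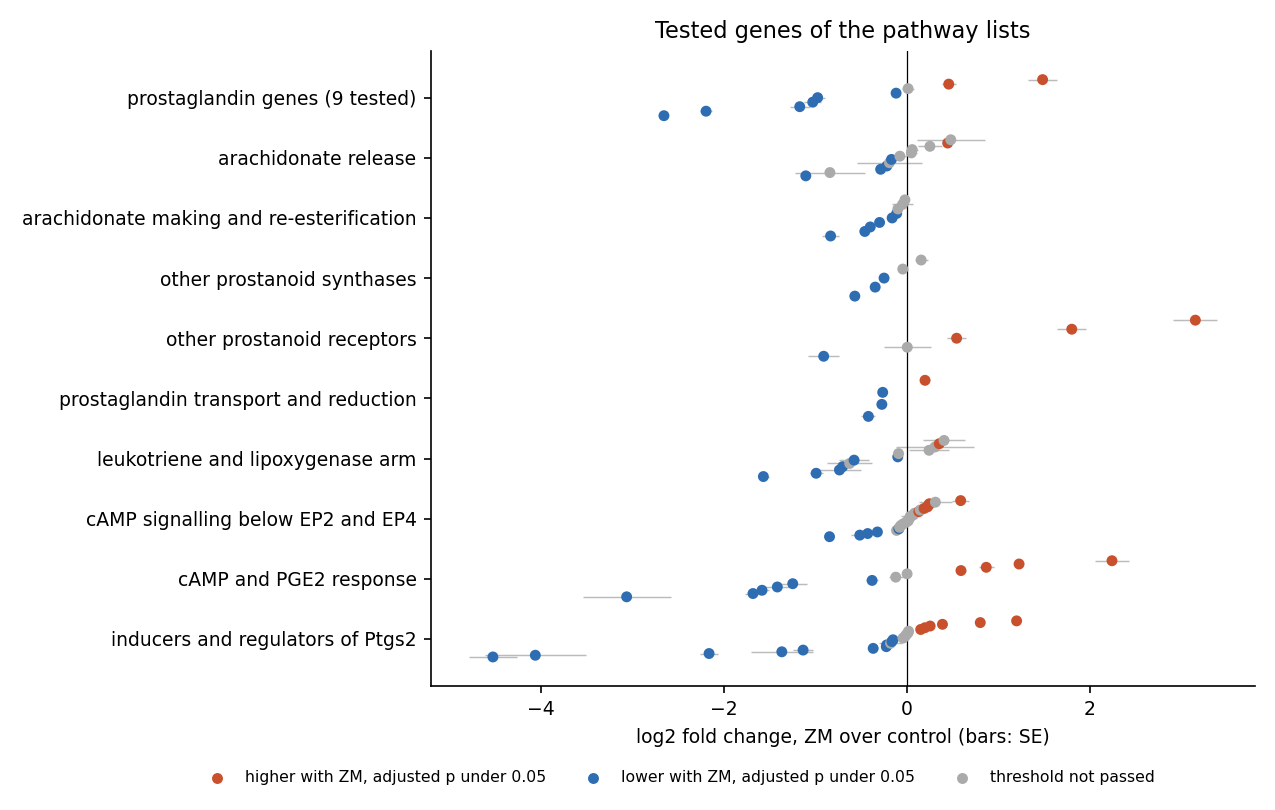
Log2 fold change of ZM over control (bars: SE) for the tested genes of each list, 1 point per gene, in orange where higher and blue where lower at an adjusted p under 0.05 and grey otherwise. Ptgs2 and Ptgs1 lie lowest among the prostaglandin genes, and the receptor list has its points from -0.91 (Ptgir) to 3.15 (Ptger3).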

How the data were processed

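mRNA sequencing of 6 samples was used, 3 control and 3 ZM, grouped by sample title. Per the submitters' processing notes, HISAT2 2.2.1, featureCounts 2.0.3 of Subread, DESeq2 and build mm10 were used. Annotation, strand setting and treatment of multiply matching reads remain not given in the sources used here. Raw whole-number counts per gene were deposited, without normalization. The deposited FPKM is each count over the column total and a gene length, and that length came out whole (within 0.01 bases) for 100% of genes. Rows without a symbol (249) stayed in library sizes.

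After edgeR's expression filter 17533 genes were fitted together with edgeR 4.0.16 in R 4.3.3 (TMM scaling, robust quasi-likelihood F test, Benjamini-Hochberg adjustment, threshold 0.05). CPM uses TMM-scaled library sizes, and the SE is the log2 fold change over the square root of F. Alternatives were DESeq2 1.42.0, limma 3.58.1 on log2(FPKM + 1) and, for the prostaglandin genes' fold changes and the lists, log2(FPKM + 0.1), where the mean reached 1 FPKM, other scalings and filters, a replicate block and leaving out each sample. The log2(FPKM + 1) scale understates changes of low genes.

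The 10 genes and all lists were chosen with earlier results of these data known. Adjusted p-values of list genes are therefore a description and no separate support. Genes named are among each list's up to 3 largest rises and up to 3 largest falls past the threshold and at 1 FPKM or more. All synthases, receptors, carriers and reductases are named too. Areg and Ppargc1a are named although below 1 FPKM. Likeness to Ptgs2 used log2(CPM + 0.1). Positions and exon overlaps are from GENCODE M21 (mm10, 1-based), and near copies were sought with BLAST+ 2.17.0. RefSeq promoter windows matched 9 of the 10 genes, Ptgis being the other. The motif spellings were chosen with results known. The p-values measure the spread between these samples only.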

Additional observations from a re-analysis of the deposited data

How the results depend on the processing

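Across 13 alternatives 7 or 8 prostaglandin genes were called, with 2 higher under each, and Hpgds was the one whose call ended. Those tested numbered 9, or 10 without the filter on low counts. With limma on log2(FPKM + 0.1) as a further alternative there were 126 fold changes of the 9 genes. Of these 119 kept their side of the threshold, and the other 7 were all of Hpgds. Ptges2, past the threshold under none, ranged from -0.03 to 0.08, and the called genes kept their direction. Ptgs2 ranged from -2.69 to -2.54 on the log2 scale, Ptgs1 from -2.25 to -2.02, and Hpgd, the gene of fewest counts, from 0.92 to 1.69, lowest on log2(FPKM + 1), where Ptger2 was also smaller, at -0.66, since the added 1 shrinks changes of low genes. With 0.1 added they were 1.47 and -0.93. Of all genes, 6308 to 8100 were called, with 2348 in place of 3935 called lower by limma on log2(FPKM + 1), where 12205 genes were tested. Of 66 other genes of the lists called, 53 kept the call under every alternative that tested them. Another 13 lost it under at least 1, and 0 reversed. Of the 105 list genes tested in the main fit, limma on log2(FPKM + 1) tested 89. The filter at a mean of 1 CPM left 97. By limma on log2(FPKM + 1), 1 other receptor was higher (3 with edgeR) as Ptger3 and Ptgfr fell below its filter, 3 leukotriene genes were lower (6) and 6 inducers and regulators of Ptgs2 were lower (10). Ratios of CPM, which are not corrected for gene length, were 3.94 and 2.85 for Ptgs2 to Ptgs1 in control and ZM samples, 458 and 25.2 for Ptgs2 to Hpgd, and 0.581 and 1.66 for Ptger4 to Ptger2. They differ from the FPKM ratios by a constant, the ratio of the gene lengths. Samples with the same number did not deviate together (correlations of -0.04, 0.06 and -0.01), so the numbers were not taken as pairs. A replicate block gave 7752 called genes against 7939 and 8 called prostaglandin genes, as without it, and not every sample correlated best with its own number. The depth limits Ptgds, and EP1, EP3 and Hpgd rest on few counts.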
